A study of Homo sapiens with 6 samples.

Results

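The screening library carried targeting guides in 2 numbered sets, and the guides described here are the second set guides of genes that both sets target. A guide was a member if its number in the library was 1496 or more, if it was not a non-targeting control, and if its gene also had guides numbered 1 to 1495. This gave 1489 of the 3653 guides in the library, against all of its 348 genes but the 49 that only the second set targets. They are called the shared genes below. Most genes had 5 second set guides (294 genes), and ADH5, OLIG3, RNF2 and TUSC2 had 4 and NRN1 had 3. The rule used only numbers and gene names and no measured value. At the edge of the rule, guide 1495 against ZGRF1 had log2 fold changes of 0.29 in vitro and 1.71 in vivo, and guide 1496 against PCGF3 had -4.51 and -4.27.

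All libraries came from HS-SY-II, an established line of human synovial sarcoma with an SS18::SSX fusion, here made to express Cas9, and all groups share this line, the Cas9 and the lentiviral guide library. The day 0 group held 2 libraries of puromycin-selected cells, the in vitro group 2 libraries of cells grown for 14 days in culture, and the in vivo group 2 libraries of subcutaneous tumours from athymic nude mice. The line is a single established line, the mice lack T cells, and the targeted genes had been picked by the study as dependencies selective for synovial sarcoma, so they are not a random draw of genes. The labels number the tumours 1 and 2, whereas a plot of the study names both as mice of the first transduction, and this is not settled. Nothing says that the libraries of a group were more than 2 transductions of one line, so p-values measure only the spread between these libraries.

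In a pooled screen each cell receives 1 guide, Cas9 cuts the gene that the guide matches, and guides against genes needed for growth become rarer as cells divide. Guides against genes that hold growth back become more common. Several guides per gene are used because single guides differ in how well they cut, and in tumours the number of cells that take hold adds scatter to the abundance of each guide.

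Library totals were 3394352 to 21854232 counts, or 929 to 5983 counts per guide on average, with day 0 replicate 1 the deepest. A guide was kept if its day 0 mean was at least 30 counts, which 1457 of the 1489 members passed. Of the 32 others, in 30 genes, 29 had 0 counts in both day 0 libraries. All shared genes kept at least 3 second set guides. The 1% most abundant guides took 11.9% and 11.6% of counts in the tumours, against 3.54% to 4.45% in the other libraries.

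The second set guides as a whole lay below both kinds of comparison guide. Their median log2 fold change against day 0 (edgeR, counts scaled by TMM) was -0.60 in vitro, with quartiles of -1.30 and -0.09, and -0.67 in vivo, with quartiles of -1.79 and 0.28. The 1492 kept first set guides of the shared genes had medians of 0.41 and 0.52, close to the 0.50 and 0.57 of the 183 non-targeting guides. The 475 kept second set guides of the 49 other genes stood at -0.49 and -0.43. A value of 0 is therefore about 0.5 log2 below the non-targeting guides, and the differences from day 0 given below keep this zero.

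The same was seen guide by guide. A guide was counted as low in an arm if it lay under the 5th percentile of the non-targeting guides in both libraries of that arm. In vitro 767 member guides (52.6%) were low, against 30.4% of all kept guides and 7.44% of first set guides. In vivo 429 member guides (29.4%) were low, against 17% of all and 4.49% of first set guides. Low in both arms were 352 of the 1457 member guides and 43 of the 1492 first set guides. So were 95 of the 475 second set guides of the 49 other genes and 1 of the 183 non-targeting guides. Of the shared genes, 88 had at least 4 low second set guides in vitro and 27 in vivo, and no gene had 4 low first set guides in either arm. BRD9, CDS2, FFAR1, MDM4, PIAS1, PRPF19 and RPL13 had 5 low second set guides in both arms. The place of a guide among the 5 numbers of its gene made little difference, with guide medians of -0.69 to -0.52 (in vitro) and -0.79 to -0.60 (in vivo) over the 5 places.

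For the test of genes, the level of each guide was log2(CPM + 1) minus its own mean over day 0, and the gene value in a library was the median over its kept second set guides. Limma compared these values between groups, with libraries as the replicates (n = 2 per group), over 647 gene and set values, and called those with a Benjamini-Hochberg adjusted p under 0.05. In vitro 38 shared genes (12.7%) were lower and 0 were higher, against 6.65% of all gene and set values called lower and 0% higher. In vivo 100 shared genes (33.4%) were lower and 5 higher, against 18.1% called lower and 3.86% higher over all values. The first set of the same genes gave 0 lower and 0 higher in vitro and 2 lower and 20 higher in vivo. Of the 49 genes with second set guides only, 5 were lower in vitro and 15 in vivo. The 36 genes lower in both arms were 94.7% of the in vitro calls and 36% of the in vivo calls, and the arms share their day 0 libraries. The calls in vitro that did not pass in vivo were DAXX, a histone H3.3 chaperone, and NME3.

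These counts moved with the day 0 libraries. Without day 0 replicate 1 the calls lower were 12 in vitro and 29 in vivo, without day 0 replicate 2 they were 22 and 46, and 12 and 27 genes were called whichever library was left out. In vitro these were BRD9, CDC45, GEMIN2, MDM4, PCGF3, PRPF19, RPL13, RPL14, RPS27A, UBA2, USP7 and WDR5, and in vivo they included AAMP, BRD9, CCND2, CDC45, CDT1, KAT2A, KAT6A, MDM4, PIAS1, PPM1D, PRPF19, PTTG1, RPL13, RPL14, RPS27A, SAE1, SS18, TAF4, TINF2, UBA2, USP7 and WDR5. Every other lower call of a gene named below was lost without at least 1 library. Without tumour 1 or tumour 2 the in vitro count was 123 and 122, since the spread was then estimated without the difference between the tumours. With the counts scaled to the non-targeting guides, 129 genes were lower in vitro, 176 were lower and 1 was higher in vivo.

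Single guides gave fewer calls. In vitro edgeR called 0 member guides after adjustment (0.05), though 194 were lower and 2 higher before it. Before adjustment 21 first set guides were lower and 33 higher. The second set guides of the 49 other genes gave 43 and 1, and the non-targeting guides 1 and 8. DESeq2 called 101 member guides lower and 0 higher, and edgeR fitted to the day 0 and day 14 libraries alone called 217 lower and 1 higher. In vivo edgeR called 25 of the 1457 member guides lower, against 41 of all 3607 kept guides (1.14%), and 9 higher, against 20 (0.554%). These in vivo calls went to 0 without either day 0 or either day 14 library, and to 382 and 416 lower without tumour 1 or tumour 2. MDM4, SRSF2 and SS18 were among the genes with 2 guides called lower, and BMPR2 had 3 called higher.

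Genes were ranked in each arm by the median edgeR log2 fold change of their second set guides. These gene medians had a median of -0.62 in vitro, with 33 genes under -2 and 11 under -4, and of -0.65 in vivo, with 51 genes under -2 and 13 under -4. From the lowest up, the first 10 in vitro were PRPF19, USP7, RPL13, CDC45, RPL14, WDR5, MDM4, PIAS1, PCGF3 and UBA2, and in vivo SS18, RPL13, MDM4, PRPF19, RPL14, PIAS1, UBA2, USP7, RPS27A and SAE1. The lowest 20 of the arms had 14 genes in common, with day 0 libraries shared. EdgeR's fold change follows the summed counts of a group, so 1 tumour in which a guide stayed common pulls it up, whereas the limma difference averages the logs. The median given for each list of genes below is taken over these edgeR gene medians, whereas the values given per library are those that limma tested. KAT2A, for example, had a median fold change of -2.51 in vivo and a limma difference of -4.85.

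The SUMO pathway attaches small ubiquitin-like modifiers to other proteins, through an activating enzyme made of SAE1 and UBA2 and ligases such as PIAS1. PIAS1, UBA2, SAE1 and SUMO2, the 4 members described here, were lower in both arms (limma), with a list median of -4.06 in vitro and -4.80 in vivo, beside -0.62 and -0.65 for all shared genes. PIAS1 (chromosome 15, 68054315 to 68193847 in hg38) had gene values of -3.63 and -5.41 in culture, and -4.91 and -5.75 in the tumours. Its guide 1532 had 5106 and 770 counts at day 0, 51 and 8 in culture, and 4 and 10 in the tumours. Its guide 1534 was the least affected, with 4832 and 768 counts at day 0, 143 and 214 in culture, and 151 and 13 in the tumours. All 4 later libraries were far below day 0, and the PIAS1 difference was -4.52 ± 0.55 (SE) in vitro (limma adjusted p = 0.000702) and -5.33 ± 0.55 in vivo (limma adjusted p = 0.000171).

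UBA2 (chromosome 19, 34428381 to 34471251) stood at -4.22 and -3.56 in culture, and -5.34 and -4.54 in the tumours. Its partner SAE1 (chromosome 19, 47130835 to 47210636) stood at -3.56 and -2.80 in culture, and -3.88 and -3.85 in the tumours. The activating enzyme thus had both subunits low in every later library, with limma differences of -3.89 ± 0.40 and -4.94 ± 0.40 for UBA2 and -3.18 ± 0.35 and -3.86 ± 0.35 for SAE1, in vitro and in vivo. SUMO2 (chromosome 17, 75165586 to 75182959), the modifier itself, had -3.29 and -4.15 in culture, and -2.29 and -4.25 in the tumours. In vitro its 4 kept guides were all low, and in vivo 3 were. Guide 3167 of SUMO2 kept 497 and 339 counts in the tumours from 3416 and 599 at day 0, and guide 3170 kept 9 and 11 from 6365 and 1022. The SUMO2 difference was -3.72 ± 0.58 in vitro (limma adjusted p = 0.00282) and -3.27 ± 0.58 in vivo (limma adjusted p = 0.00375), and both calls were lost without day 0 replicate 1.

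BAF complexes are ATP-driven remodellers of chromatin, and SS18 is the subunit that is fused to SSX in synovial sarcoma. SS18, BRD9 and SMARCD1 were lower in both arms (3 of 3 members), with a list median of -2.14 in vitro and -4.30 in vivo. SS18 (chromosome 18, 26016253 to 26091219) stood at -2.63 and -2.64 in culture, and -5.37 and -5.73 in the tumours. Guide 1504 of SS18 had 3062 and 727 counts at day 0, 133 and 122 in culture, and 4 and 10 in the tumours (edgeR log2 fold change -6.63 in vivo). Guide 1505 had 3288 and 748 counts at day 0, 44 and 626 in culture, and 21 and 11 in the tumours, so its cultures lay far apart and its tumours together. SS18 had the lowest median of all shared genes in vivo and rank 30 in vitro. Its limma difference was -2.63 ± 0.31 in vitro (adjusted p = 0.000594) and -5.55 ± 0.31 in vivo (adjusted p = 8.31e-06).

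BRD9 (chromosome 5, 863741 to 892801), a bromodomain subunit of the non-canonical BAF complex, had values of -3.00 and -3.03 in culture, and -4.22 and -3.83 in the tumours. SMARCD1 (chromosome 12, 50085342 to 50100707), a core subunit, had -1.74 and -1.75 in culture, and -1.30 and -1.06 in the tumours. Its first set guides were also negative, with a median fold change of -0.80 in both arms (SS18 had 0.07 in vitro and -0.14 in vivo, and BRD9 0.38 and 0.89), and its second set minus first set difference did not pass the test (limma adjusted p = 0.17 in vitro and 0.495 in vivo). SMARCD1 lost its calls in both arms without any 1 of the day 0 or day 14 libraries.

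Polycomb repressive complex 1 places ubiquitin on histone H2A, and PCGF3 defines one of its non-canonical forms. Of 3 members, PCGF3 was lower than day 0 in both arms and RING1 and RNF2 did not pass that test in either. By the second set minus first set test, 2 of the 3 were lower in each arm. That test called 21.4% of all shared genes lower in vitro and 43.5% in vivo. PCGF3 (chromosome 4, 705832 to 770089) stood at -4.17 and -3.24 in culture, and -2.39 and -3.12 in the tumours, a limma difference of -3.71 ± 0.41 in vitro (adjusted p = 0.00041) and -2.75 ± 0.41 in vivo (adjusted p = 0.00132). RING1 and RNF2, paralogous catalytic subunits, had median fold changes of -1.30 and -0.09 in vitro and -1.45 and 0.25 in vivo.

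Of the 5 members of histone-modifying complexes, 3 were lower in vitro and 4 in vivo, with a median of -1.93 in vitro and -2.83 in vivo. WDR5 (chromosome 9, 134135199 to 134159968), a scaffold of methyltransferase and acetyltransferase complexes, had values of -4.82 and -4.64 in culture, and -3.18 and -4.31 in the tumours. KAT2A (chromosome 17, 42113111 to 42121367), the acetyltransferase of the SAGA and ATAC complexes, had -3.50 and -3.79 in culture, and -5.58 and -4.11 in the tumours. TADA2B, another SAGA subunit, passed only the in vivo test, with -0.91 and -1.48 in culture, and -1.78 and -3.95 in the tumours. KAT6A, a MYST-family acetyltransferase, had -1.98 and -1.80 in culture, and -4.20 and -2.61 in the tumours. For TADA2B and KAT6A the difference between tumours and cultures did not pass its own test (limma adjusted p = 0.268 and 0.181). ING3, a reader of methylated histone H3 in the NuA4 complex, was at -1.55 and -1.31 and did not pass against day 0 in either arm. The second set minus first set test called 2 of the 5 members lower in vitro and 4 in vivo. Its shares over all shared genes were 21.4% and 43.5%.

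MDM4, USP7 and PPM1D each restrain p53, and CCNG1 is a p53 target. Against day 0 the first 3 were lower in both arms and CCNG1 in neither, and the list median was -3.60 in vitro and -3.84 in vivo. The second set minus first set test did call CCNG1 lower. Its differences there were -1.47 in vitro (limma adjusted p = 0.0478) and -1.36 in vivo (limma adjusted p = 0.0345). Over all shared genes the median difference was -1.02 in vitro and -1.27 in vivo, and 21.4% and 43.5% were called lower. The CCNG1 values thus lay near the shift of the whole set. MDM4 (chromosome 1, 204516406 to 204558120), which binds and inhibits p53, stood at -5.52 and -4.16 in culture, and -5.46 and -5.07 in the tumours. USP7 (chromosome 16, 8892097 to 8963906), a deubiquitinase that stabilises MDM2, stood at -5.81 and -5.52 in culture, and -4.40 and -4.45 in the tumours. Its 5 guides were all low in vitro but only 3 in vivo, where guide 1893 had 665 and 5015 counts from 6427 and 2244 at day 0. The USP7 difference was -5.66 ± 0.32 in vitro (limma adjusted p = 9.85e-06), the lowest of the shared genes in that arm, and -4.43 ± 0.32 in vivo (limma adjusted p = 4.72e-05). PPM1D (chromosome 17, 60600193 to 60666280), a phosphatase, had -2.88 and -1.92 in culture, and -3.30 and -2.75 in the tumours.

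Genes of protein synthesis and RNA splicing were among the lowest. RPL13 and RPL14 of the large ribosomal subunit, RPS27A of the small one and AAMP, listed with ribosome assembly, were lower in both arms (4 of 4), with a median of -4.31 in vitro and -5.01 in vivo. RPL13 (chromosome 16, 89560657 to 89566829) had -5.35 and -4.09 in culture, and -5.02 and -5.92 in the tumours. Of the splicing list, PRPF19, SRSF2 and GEMIN2 were lower in both arms and LSM14B, which belongs to a family of mRNA-binding proteins, in vivo alone, with a median of -2.53 in vitro and -3.15 in vivo. PRPF19 (chromosome 11, 60890547 to 60906585), a ubiquitin ligase of the spliceosome, had -4.95 and -5.67 in culture, and -4.18 and -5.81 in the tumours. Its guide 2904 had 2531 and 261 counts at day 0, 4 and 2 in culture, and 9 and 2 in the tumours. SRSF2 (chromosome 17, 76734115 to 76737411) had gene values far apart in culture, at -4.28 and -1.49, and close together in the tumours, at -4.0 and -3.95. Both tumour values were those of guide 1563. Guide 1561 had -6.79 and -3.31 in the tumours and guide 1562 -1.23 and -6.30, while guide 1564 had -5.29 and -6.03.

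Some of the lowest genes were already less common in day 0 replicate 2 than in day 0 replicate 1. The gap between the day 0 libraries, replicate 2 minus replicate 1, was -1.74 for RPL13, -1.59 for PRPF19 and RPL14, -1.21 for CDC45 and -1.03 for FFAR1. Over the 38 genes lower in vitro the median gap was -0.37, and over the other genes it was -0.08. Over the 100 genes lower in vivo it was -0.23, and over the other genes -0.03. The part of this gap in the results was not tested beyond leaving out each day 0 library. SS18, BRD9 and BMPR2 had gaps of 0.11, 0.06 and 0.06.

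Of 5 genes of replication and the cell cycle, 4 were lower in vitro and 5 in vivo, with a median of -2.73 in vitro and -3.37 in vivo. CDC45 (chromosome 22, 19479466 to 19520612), part of the replicative helicase, stood at -5.20 and -5.50 in culture, and -5.15 and -5.10 in the tumours. CDT1, which licenses replication origins, had -3.04 and -3.35 in culture, and -5.28 and -3.17 in the tumours. SKA2 and CENPF, both of the kinetochore, had limma differences of -2.80 ± 0.50 and -2.83 ± 0.36 in vitro and -2.02 ± 0.50 and -1.42 ± 0.36 in vivo. CCND2, a D-type cyclin, passed only the in vivo test. Other genes among the lowest 20 of an arm were TAF4, a subunit of the general transcription factor TFIID, ESF1, a factor of ribosomal RNA processing, EPS8L1, an actin regulator, and TLCD1, a membrane protein. ESF1 had cultures of -2.94 and -6.31 and tumours of -2.82 and -2.70, and with counts summed over its guides its in vivo value was 0.31.

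Both shelterin genes, which protect telomere ends, passed in vivo and neither did in vitro. TINF2 had -1.64 and -1.26 in culture, and -2.38 and -3.55 in the tumours, and TERF1 -0.73 and -0.30 in culture, and -0.99 and -1.10 in the tumours. For neither did tumours and cultures differ by the direct test (limma adjusted p = 0.158 for TINF2 and 0.548 for TERF1). The call of TERF1 (limma adjusted p = 0.0436) was lost without any 1 of the day 0 or day 14 libraries. Of the 4 Wnt genes none passed against day 0 in either arm, with a list median of -0.50 (in vitro) or -0.12 (in vivo). The second set minus first set test called 0 of them lower in vitro and 1 in vivo, beside 21.4% and 43.5% of all shared genes. CTNNB1, which encodes beta-catenin, had median fold changes of -0.40 and 0.45. A list of 11 genes known for other tissues was at -0.28 in vitro and -0.30 in vivo by its median. Of these FFAR1, a fatty acid receptor, was lower in both arms, and CD27, a lymphocyte receptor, and HPN, a liver protease, were lower in vivo. That was 1 of the 11 in vitro and 3 in vivo, beside 12.7% and 33.4% of all shared genes. Against their first set, 1 of the 11 was lower in vitro and 5 in vivo. HPN had values of -3.25 and -2.87 in culture, and -5.69 and -2.06 in the tumours, and its in vitro difference of -3.06 ± 0.89 did not pass (limma adjusted p = 0.0741). The direct test between the arms passed for neither CD27 (limma adjusted p = 0.0694) nor HPN (0.753), nor for LSM14B (0.554).

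In the direct limma test between tumours and cultures 2 shared genes were lower and 1 was higher in the tumours, beside 0.464% of all gene and set values called. This count depended on the model, with 20 lower and 4 higher under a block by replicate number, 1 and 1 when the tumours were both assigned to transduction 1, and 34 and 18 or 50 and 20 without tumour 1 or tumour 2. BMPR2 (chromosome 2, 202376327 to 202567749), a type II receptor for bone morphogenetic proteins, stood at -1.36 and -0.74 in culture, and 3.22 and 2.90 in the tumours. Its guide 2083 had 4151 and 926 counts at day 0, 644 and 935 in culture, and 21093 and 36549 in the tumours. Guide 2085 differed between the tumours, with 8912 and 1178 counts. All 5 BMPR2 guides had positive fold changes in vivo, from 2.27 to 5.03, and 4 of them were low in vitro. The in vitro difference of BMPR2 from day 0, -1.05 ± 0.34, did not pass (limma adjusted p = 0.101). Its second set was lower than its first set in vitro, with a difference of -1.79 ± 0.47 (limma adjusted p = 0.0343). The median of this difference over all shared genes was -1.02. The difference of tumours minus cultures was 4.11 ± 0.34 (limma adjusted p = 0.000278). Guide 2083 was also the only member guide that edgeR called between the arms (adjusted p = 0.0437).

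SS18 was lower in the tumours than in the cultures by a difference of -2.91 ± 0.31 (limma adjusted p = 0.00138, n = 2 per group). CCND2 (chromosome 12, 4273762 to 4305353) had -1.06 and -1.11 in culture, and -3.15 and -2.96 in the tumours, a difference of -1.98 ± 0.31 (limma adjusted p = 0.0196). Its guides disagreed in vivo, from guide 3209, with 4 and 15 counts in the tumours from 5378 and 775 at day 0, to guide 3206, with 967 and 215 from 2512 and 636. The call of BMPR2 held without each library. That of SS18 was lost without day 0 replicate 1 (limma adjusted p = 0.23), and that of CCND2 without either day 0 or either day 14 library (limma adjusted p = 0.127 to 0.267). With counts summed per gene, edgeR called neither SS18 (adjusted p = 0.128) nor CCND2 (adjusted p = 0.689).

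At the other end of the ranking no gene was higher in vitro. The highest medians there were 1.07 for SPATA4, 0.64 for UTY, 0.61 for TLR2, 0.55 for OLIG3 and 0.53 for DPP10, beside a median of 0.50 and an upper quartile of 0.79 for the non-targeting guides. In vivo BMPR2 (3.06), UTY (1.68), SLC2A3 (1.42), NKIRAS1 (1.34) and TMED9 (1.18) had the highest medians. BMPR2, UTY, TMED9, CDS1 and RNF130 were higher by limma, and with counts scaled to the non-targeting guides BMPR2 alone was. The higher call of BMPR2 held without each library. That of UTY was lost without either day 0 library, either day 14 library or tumour 2, and that of TMED9 without either day 0 library. SLC2A3, a glucose transporter, had -0.52 in one tumour and 2.24 in the other and did not pass (limma adjusted p = 0.419).

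The second and first set guides of a gene were compared within each library, which largely leaves out the scaling. In vitro the second set was lower than the first for 64 shared genes (21.4%) and higher for 0, and in vivo lower for 130 (43.5%) and higher for 1, BMPR2. Irrespective of the test, the second set median was below the first for 285 genes in vitro and 263 in vivo. The median difference over all genes was -1.02 in vitro and -1.27 in vivo. The counts depended on the day 0 libraries, at 7 in vitro and 23 in vivo when day 0 replicate 1 was left out, or 18 and 30 when day 0 replicate 2 was, and the in vitro count was 28 and 30 without day 14 replicate 1 or 2 and 170 without either tumour. For MDM4 the difference was -5.08 ± 0.54 in vitro and -5.52 ± 0.54 in vivo, for PIAS1 -4.73 ± 0.59 and -5.66 ± 0.59, and for WDR5 -5.46 ± 0.50 and -4.59 ± 0.50. First set guides of WDR5 had medians of 0.74 and 0.84, above those of the non-targeting guides. Of the genes called lower by the second set, 35 of 38 in vitro and 85 of 100 in vivo were also lower than their first set. Both tests use the same second set values and libraries, so this overlap is not independent support. The first set medians of the 38 genes lower in vitro had a median of 0.37, against 0.42 for the other genes, and those of the 100 genes lower in vivo 0.37 against 0.63. Over the shared genes the second and first set medians had a Pearson r of 0.11 in vitro and 0.17 in vivo, across genes and from the same libraries. What separates the sets in design was not given in the sources used here, and guide sequences were not used here.

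Guides varied more in the tumours than in the cultures. The median absolute gap between the 2 libraries was 0.49 log2 for member guides in vitro and 1.12 in vivo, beside 0.32 and 0.90 for non-targeting guides. A gap over 2 was found for 77 member guides (5.28%) in vitro and 414 (28.4%) in vivo. Taking the median over the guides of a gene narrowed the gaps to 0.30 and 0.64. Among guides of the same gene the median SD of log2 fold changes was 0.63 in vitro and 1.23 in vivo. Of the 100 genes lower in vivo, 41 still had a guide with a positive fold change, against 3 of 38 in vitro. With a separate day 0 library for each, gene values of culture 1 and culture 2 had a Pearson r of 0.83 over the shared genes, those of tumour 1 and tumour 2 0.72, and those of a culture and a tumour 0.73 and 0.71. These are correlations across genes, which are not independent replicates.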

How the data were processed

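Genomic DNA of 6 HS-SY-II-Cas9 libraries was amplified and sequenced for guides. The authors deposited read counts for each guide, which MAGeCK made, and a table of normalized signal, where a library differs from its counts by 1 constant factor. The submitters' processing notes name MAGeCK and hg38 without versions. Columns were matched to samples by name, and 0 were left without one.

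Sorted by number, guides 1 to 1495 have gene names in alphabetical order, and this run was taken as the first set. Guides with a day 0 mean of at least 30 counts were kept, scaled by TMM and fitted in 1 model of all libraries with edgeR's quasi-likelihood test (edgeR 4.0.16, R 4.3.3, common dispersion 0.303). Gene and set values with at least 3 kept guides were medians of log2(CPM + 1), tested with limma 3.58.1 on the libraries, as were second minus first set differences and tumours minus cultures. P-values were adjusted by Benjamini-Hochberg over all guides, all 647 gene and set values or all differences between the sets, at 0.05. The procedure was also run on simulated counts with the same dispersion in every group, which does not test the wider spread of the tumours. Fold changes of gene values use a pseudocount of 1 CPM and understate strong losses. PCR reads without molecular identifiers are not independent molecules.

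The members and the gene lists were chosen with earlier results of these data known, so the counts of the lists are descriptions. One gene that the naming rule takes is not reported here. Named genes were the 20 lowest and 5 highest by median guide fold change in each arm, list members called or among the lowest 40 of an arm, and genes called between tumours and cultures. CDS1, CDS2, RNF130, DAXX, NME3 and PTTG1, the list members named with no call, and the guides shown were chosen after their values were seen. Gene positions came from RefSeq on GRCh38.p14, where 291 symbols matched and the other 8 matched an older name.

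By the study's methods each transduction gave the day 0 aliquot and cells for both arms. Deviations from the group means of same-numbered libraries correlated over guides at 0.0694 for day 0 with day 14, 0.00198 for day 0 with tumours and 0.00252 for day 14 with tumours. The fits above have no block. Alternatives were median-ratio scaling, scaling to the non-targeting guides, no filter, a pseudocount of 5 CPM, the mean over guides, counts summed per gene, DESeq2 1.42.0, fits of 2 groups, a replicate block, each library left out, an adjusted p under 0.2 and limma on the deposited signal values. A block with both tumours in transduction 1 was added after seeing the data.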

Additional observations from a re-analysis of the deposited data

Results flagged for a closer look

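The second set guides of BMPR2, SS18 and CCND2 changed by different amounts in the tumours and the cultures, by the limma test of the difference itself (n = 2 libraries per group). Tumours minus cultures was 4.11 for BMPR2, -2.91 for SS18 and -1.98 for CCND2 on the log2 scale. BMPR2 was higher than day 0 in the tumours, and its value of -1.05 in vitro did not pass the test (limma adjusted p = 0.101). In vitro its second set was lower than its first set, with a difference of -1.79 (limma adjusted p = 0.0343), beside a median of -1.02 over all shared genes. SS18 was lower than day 0 in both arms, and CCND2 in the tumours, with an in vitro value of -1.08 that did not pass (limma adjusted p = 0.0682). Between the arms only the call of BMPR2 held without each library. That of SS18 was lost without day 0 replicate 1, and that of CCND2 without either day 0 or either day 14 library. With counts summed per gene, edgeR called neither SS18 nor CCND2 between the arms.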

How the results depend on the processing

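Of 1649 values of named genes under an alternative, 1443 kept their direction and their side of the threshold, 141 lost a call, 57 gained one, 7 with no call changed sign and 1 reversed. Counts of calls moved more. Median-ratio scaling kept every count of calls within 1.5 times. Scaled to the non-targeting guides instead, 129 genes were lower in vitro, 176 lower and 1 higher in vivo, and 88 guides were lower in vivo. The authors' normalized values gave 111 and 172 genes lower and 1 higher in vivo. Both put the first set at -0.10 and shift the median of all second set genes from -0.60 to -1.10 in vitro and from -0.76 to -1.26 or -1.27 in vivo.

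Between tumours and cultures, 5 genes were lower without the count filter, 6 lower and 2 higher with a pseudocount of 5 CPM, and 5 lower and 2 higher with the mean over guides, which also called 62 genes lower in vitro. With counts summed per gene, edgeR called 14 genes lower in vitro, 63 lower and 23 higher in vivo, and 0 lower and 12 higher between the arms, and ESF1 turned to 0.31 in vivo. DESeq2 called 101 guides lower in vitro, and 266 lower and 72 higher in vivo. At an adjusted p under 0.2, 92 genes were lower and 1 higher in vitro, 162 lower and 9 higher in vivo, 23 lower and 7 higher between the arms, and the second set was below the first for 165 and 202.

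Fitted to 2 groups alone, 217 guides were lower and 1 higher in vitro and 0 and 0 in vivo. Of genes, 123 were lower and 1 higher in vitro, 1 was higher in vivo, 1 was lower between the arms, and 171 were below their first set in vitro. The cultures then no longer shared the spread of the tumours.

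With a replicate block, 0 guides were lower and 0 higher in vivo, 63 genes were lower in vitro, and 20 were lower and 4 higher between the arms. Where the block put both tumours in transduction 1, these guide counts were also 0 and 0, 1 gene was higher in vivo, 1 was lower between the arms, and 34 were below their first set in vitro. Other block counts stayed within 1.5 times.

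Leaving out each library gave 0 to 195 guides lower and 0 to 1 higher in vitro, 0 to 416 lower and 0 to 123 higher in vivo, 12 to 123 genes lower and 0 to 1 higher in vitro, and 29 to 147 lower and 1 to 13 higher in vivo. Between the arms it gave 0 to 50 lower and 1 to 20 higher, and the second set was below the first for 7 to 170 and 23 to 183. The low ends came without a day 0 or a day 14 library, and the high ends without a tumour. A group left with 1 library was assumed to vary like the others. Depth limits guides with few day 0 counts, and 2 libraries per group limit every test.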
